A study of Mus musculus with 6 samples.

Results

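The 10 genes described here encode the transcription factors that specify and mature the megakaryocyte, the large polyploid marrow cell that sheds platelets: Gata1, Gata2, Zfpm1, Fli1, Erg, Runx1, Tal1, Gfi1b, Nfe2 and Srf. They were chosen by name, with earlier results of these data known. Each had 1 array row with a single gene symbol, so that all 10 were measured among 30063 named genes. The study sorted megakaryocytes from the bone marrow of female C57 mice carrying acute myeloid leukaemia (AML) of the MLL-AF9 fusion type, and from healthy controls matched for strain and sex. The gate, shared by both groups, took cells of high side scatter, high surface CD41 (product of Itga2b) and at least 8N DNA, and their total RNA was hybridised to a whole-transcript Affymetrix array. There were 3 AML and 3 control arrays, called biological replicates by the labels, which give neither animal numbers nor the age of the mice and do not say how the leukaemia was established or whether animals were pooled. The p-values therefore measure the spread between these samples, which may be partly technical.

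Megakaryocyte differentiation is run by a small set of factors that bind together at the regulatory elements of platelet genes. GATA1 acts with its cofactor ZFPM1 (also called FOG1) and takes over sites held by GATA2 in stem and progenitor cells. The ETS proteins FLI1 and ERG, the runt-domain protein RUNX1 and the helix-loop-helix protein TAL1 occupy many of the same elements, and GFI1B represses genes of other lineages by recruiting the histone demethylase KDM1A. NFE2, paired with a small MAF protein, drives the late steps of platelet release, and SRF, with its actin-sensing coactivators of the MRTF family, drives cytoskeletal genes.

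Many of these factors bind the promoters of their own genes or of each other, and the start-site sequences of 8 of the 10 genes were available from RefSeq on mouse build GRCm38.p6, in 13 windows that run from 250 bases before to 50 bases after an annotated start. Windows of 4 genes are printed 5′ to 3′ on the strand of the gene, because they hold matches to the motif of a factor in the set. Srf and Erg are the 2 genes of the set that passed the test for a difference between AML and control, Runx1 has matches to the motif of its own product, and Gfi1b is a gene regulated by GATA1. Capitals mark, in Srf (chr17:46556113-46556412, minus strand), matches to the CArG box, the motif of SRF itself. In Erg (chr16:95459299-95459598, minus strand, 1 of 3 Erg windows) they mark a match to the GATA motif, followed by a match to the ETS core. In Runx1 (chr16:92826025-92826324, minus strand, 1 of 2 Runx1 windows) they mark the RUNX motif, and in Gfi1b (chr2:28621933-28622232, minus strand) the GATA motif. Matches on either strand count, so that some capitals spell the reverse complement.
Srf: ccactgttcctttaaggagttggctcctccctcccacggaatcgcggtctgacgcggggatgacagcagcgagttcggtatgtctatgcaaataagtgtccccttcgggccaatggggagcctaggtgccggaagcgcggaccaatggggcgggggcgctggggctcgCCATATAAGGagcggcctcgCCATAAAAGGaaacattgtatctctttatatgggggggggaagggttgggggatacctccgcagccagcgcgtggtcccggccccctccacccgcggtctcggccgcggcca
Erg: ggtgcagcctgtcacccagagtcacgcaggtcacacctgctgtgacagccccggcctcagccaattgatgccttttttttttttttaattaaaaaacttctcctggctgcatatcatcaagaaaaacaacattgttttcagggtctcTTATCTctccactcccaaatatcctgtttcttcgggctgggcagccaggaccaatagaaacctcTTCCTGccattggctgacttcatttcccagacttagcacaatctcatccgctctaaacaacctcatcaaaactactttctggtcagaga
Runx1: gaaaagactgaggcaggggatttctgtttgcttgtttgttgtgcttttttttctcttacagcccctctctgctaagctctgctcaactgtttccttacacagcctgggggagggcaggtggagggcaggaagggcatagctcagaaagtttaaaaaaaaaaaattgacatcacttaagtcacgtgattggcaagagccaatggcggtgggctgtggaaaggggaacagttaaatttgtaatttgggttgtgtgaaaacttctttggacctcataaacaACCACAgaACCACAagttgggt
Gfi1b: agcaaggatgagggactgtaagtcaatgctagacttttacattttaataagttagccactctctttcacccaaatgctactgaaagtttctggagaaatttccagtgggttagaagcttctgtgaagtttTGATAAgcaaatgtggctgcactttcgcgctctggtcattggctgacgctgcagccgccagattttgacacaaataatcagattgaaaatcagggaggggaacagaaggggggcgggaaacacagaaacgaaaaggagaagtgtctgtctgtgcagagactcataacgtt
Both strands were searched for the GATA motif (AGATAA or AGATAG or TGATAA or TGATAG), the ETS core (CAGGAA or CCGGAA), the RUNX motif (TGTGGT or TGCGGT) and the CArG box, and no matches overlapped each other in the windows of the set. The Srf window held 2 CArG boxes, at positions -82 and -62 from the start, whereas 1.63% of the 32851 promoter windows of the table held at least 1 CArG box and 0.0183% (6 windows) held 2 or more. The Runx1 window shown held 2 RUNX motifs, a number reached or passed by 2.86% of all windows. The GATA match of Gfi1b lay at position -120 and that of Erg at -103, a match in 1 of 2 Tal1 windows, not printed, lay at -205, and 29.8% of all windows held such a match. The ETS core matched at -39 in Erg, at -122 in Srf, at -126 in Gata1 and once in each Runx1 window, outside capitals except in Erg, and 41.4% of all windows held it. These matches describe letters and not bound sites.

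The arrays had medians of 5.29 to 5.32 in AML and 5.16 to 5.24 in control. AML array 3 stood apart: the median of the olfactory and vomeronasal receptor genes, which megakaryocytes are not known to use, was 3.87 there, against 3.56 to 3.58 on the other AML arrays and 3.34 to 3.54 on the control arrays, and it had the lowest array weight of the 6. Of the genes that mark the lineage, Pf4, encoding platelet factor 4, stood at 11.98 ± 0.22 in AML and 12.09 ± 0.12 in control (adjusted p = 0.546), and Itga2b at 9.22 ± 0.46 in AML and 9.04 ± 0.11 in control (adjusted p = 0.555).

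Srf and Erg were higher in the RNA of megakaryocyte sorts from leukaemic marrow, 0 of the 10 factors passed downward, and the other 8 did not pass the test. The authors deposited log2 values computed with RMA, so that a difference of 1 is a 2-fold change, differences are AML minus control, and ± gives the SD within a group (n = 3 arrays each). All adjusted p-values are from limma's moderated test, two-sided, with Benjamini-Hochberg adjustment over the 30063 genes and a threshold of 0.05. Against the 2 of 10 members that were higher and the 0 that were lower stood 4.49% of all genes called higher and 6.25% called lower. With each array centred on its median, 1 of 10 members was higher, beside 1.68% of all genes higher and 9.02% lower. The count of higher members was 0 without control array 2, where the count over all genes fell from 3230 to 967. It was also 0 with the replicate number as a block, where 1067 genes passed. At an unadjusted p under 0.05, 6 members were higher and 0 lower, beside 21% of all genes higher and 11.8% lower. The median difference of the 10 genes was +0.31, beside +0.11 over all genes in the deposited values. The 3 AML values lay above all 3 control values in 4 members, Gata1, Nfe2, Erg and Srf, beside 28.2% of all genes. They lay below all 3 control values in 0 members, beside 13.1% of all genes, and the groups overlapped in the other 6 (41.3% of all genes did not overlap in either direction). Every member had a mean above 5.51, the level under which 95% of olfactory and vomeronasal receptor genes lay, taken here as background.

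**Figure D1:**
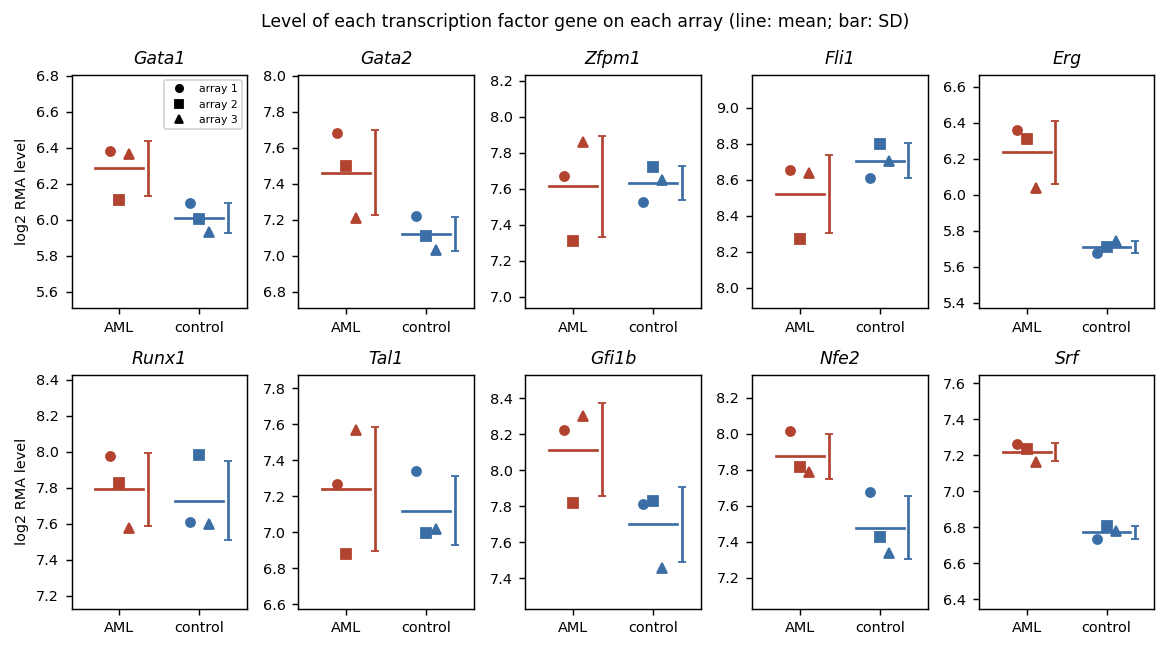
Log2 RMA level (vertical axes) of each of the 10 genes on the 3 AML arrays (red, left) and the 3 control arrays (blue, right); symbols mark array numbers, lines the mean and bars the SD. Srf and Erg are separated most clearly, with AML means of 7.22 and 6.24 against control means of 6.77 and 5.71, while Zfpm1, Runx1, Tal1, Fli1, Gata2 and Gfi1b overlap between groups.

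Srf, whose product links the actin cytoskeleton to transcription, gave the clearest separation. It stood at 7.26, 7.23 and 7.16 on AML arrays 1 to 3, against 6.73, 6.80 and 6.78 on control arrays 1 to 3. Every AML value was above every control value, and the replicates of each group lay close together (SD 0.05 in AML and 0.04 in control). Srf rose by +0.45 (SE 0.07, 95% CI 0.29 to 0.61), a 1.36-fold higher level, with an adjusted p of 0.0105. Its difference was larger than that of 93.3% of all genes. Leaving out control array 2 ended the call (+0.46, adjusted p = 0.0533), a setting in which the count over all genes fell from 3230 to 967. Centring each array on the median of all its rows, a setting chosen after seeing the data, also ended it (+0.34, adjusted p = 0.0560), whereas centring on the median of the 30063 genes kept it (+0.33, adjusted p = 0.0402).

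Erg encodes an ETS factor needed by blood stem cells and megakaryocytes and related to FLI1. It stood at 6.36, 6.31 and 6.04 on the AML arrays, against 5.68, 5.71 and 5.74 on the control arrays. The AML values all lay above the control values, and AML array 3 was the lowest of the 3. Erg rose by +0.53 (SE 0.10, 95% CI 0.29 to 0.76), or 1.44-fold, with an adjusted p of 0.0215, and its difference exceeded that of 95.4% of all genes. Leaving out AML array 3 kept the call (+0.63, adjusted p = 0.00441). Leaving out any other array ended it (+0.46 to +0.54, adjusted p 0.0528 to 0.0910), as did median centring (+0.41, adjusted p = 0.0596).

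Fli1, the ETS factor that binds the promoters of many platelet glycoprotein genes, pointed the other way. It stood at 8.65, 8.27 and 8.64 on the AML arrays, against 8.61, 8.80 and 8.71 on the control arrays. AML array 2 was the lowest of the 6 arrays, and the other 2 AML values lay within the control range. The difference was -0.19 (SE 0.12, 95% CI -0.47 to 0.10, adjusted p = 0.299). The difference of Erg exceeded that of Fli1 by 0.71, and the exact two-sided permutation test of Erg minus Fli1 within each array gave p = 0.1, the smallest that 3 against 3 arrays allow (0.2 adjusted over the 2 pairs tested).

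Gata1 encodes the factor without which megakaryocytes do not mature, and it stood at 6.38, 6.11 and 6.37 on the AML arrays, against 6.10, 6.002 and 5.93 on the control arrays. The groups did not overlap, although AML array 2 lay just above the highest control array. The difference was +0.27 (SE 0.10, 95% CI 0.04 to 0.51) and did not pass (adjusted p = 0.110). No setting brought the adjusted p of Gata1 under 0.05, the lowest being 0.0503 with array weights. Zfpm1, the cofactor of GATA1, stood at 7.67, 7.31 and 7.86 on the AML arrays, against 7.53, 7.72 and 7.65 on the control arrays. Its AML arrays held both the highest and the lowest of the 6 values, and the difference was -0.02 (95% CI -0.36 to 0.32, adjusted p = 0.932).

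Gata2, the GATA factor of stem and progenitor cells that GATA1 displaces during maturation, stood at 7.68, 7.50 and 7.21 on the AML arrays, against 7.22, 7.11 and 7.03 on the control arrays. AML arrays 1 and 2 lay above all controls, and AML array 3 lay just under control array 1. The difference was +0.34 (SE 0.13, 95% CI 0.04 to 0.64, adjusted p = 0.121). It passed without AML array 3 (+0.47, adjusted p = 0.0299), where 5.45% of all genes were called higher, and with array weights (+0.46, adjusted p = 0.0136), where 16.1% were. The difference of Gata2 exceeded that of Gata1 by 0.07 (exact two-sided permutation p = 0.8), and the within-array difference of the pair ran from 0.84 to 1.39 on the AML arrays, against 1.10 to 1.13 on the control arrays. The AML arrays spanned the control values.

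Runx1, the runt-domain factor that megakaryocytes need for polyploidy and platelet number, stood at 7.98, 7.83 and 7.58 on the AML arrays, against 7.61, 7.98 and 7.60 on the control arrays. The groups overlapped over almost their whole range, with a difference of +0.06 (95% CI -0.28 to 0.40, adjusted p = 0.762). Tal1, the helix-loop-helix partner of the GATA complex, stood at 7.27, 6.88 and 7.57 on the AML arrays, against 7.34, 6.997 and 7.02 on the control arrays. It had the widest AML spread of the set (SD 0.35), and its difference was +0.12 (95% CI -0.31 to 0.55, adjusted p = 0.652). Gfi1b, the repressor required for megakaryocyte and erythroid development, stood at 8.22, 7.82 and 8.30 on the AML arrays, against 7.81, 7.83 and 7.46 on the control arrays. AML arrays 1 and 3 lay above all controls and AML array 2 among them, which left the difference of +0.42 (SE 0.16, 95% CI 0.04 to 0.79) short of the threshold (adjusted p = 0.125). The signs of Runx1, Tal1 and Zfpm1 turned under some settings and carry no direction.

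Nfe2, the factor of late maturation and platelet release, stood at 8.02, 7.82 and 7.79 on the AML arrays, against 7.68, 7.42 and 7.34 on the control arrays. Each AML value was above each control value. The difference was +0.40 (SE 0.11, 95% CI 0.13 to 0.66), with an adjusted p of 0.0674. It passed in 6 of 17 other settings, among them the fit without control array 1 (+0.49, adjusted p = 0.0402) and quantile normalization (+0.55, adjusted p = 0.0352, with 4.6% of all genes called higher). It did not pass in the other 11, where the highest adjusted p was 0.208, without control array 2.

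**Figure D2:**
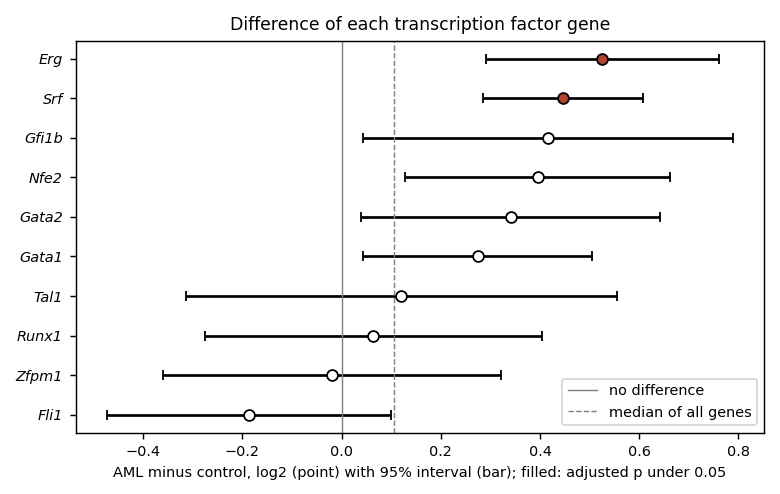
Difference of each gene, AML minus control on the log2 scale (horizontal axis), with its 95% interval from limma; filled points passed an adjusted p of 0.05, the solid line marks 0 and the dashed line the median of all genes, +0.11. Erg (+0.53) and Srf (+0.45) are the filled points, and the intervals of Fli1, Zfpm1, Runx1 and Tal1 include 0.

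**Figure D3:**
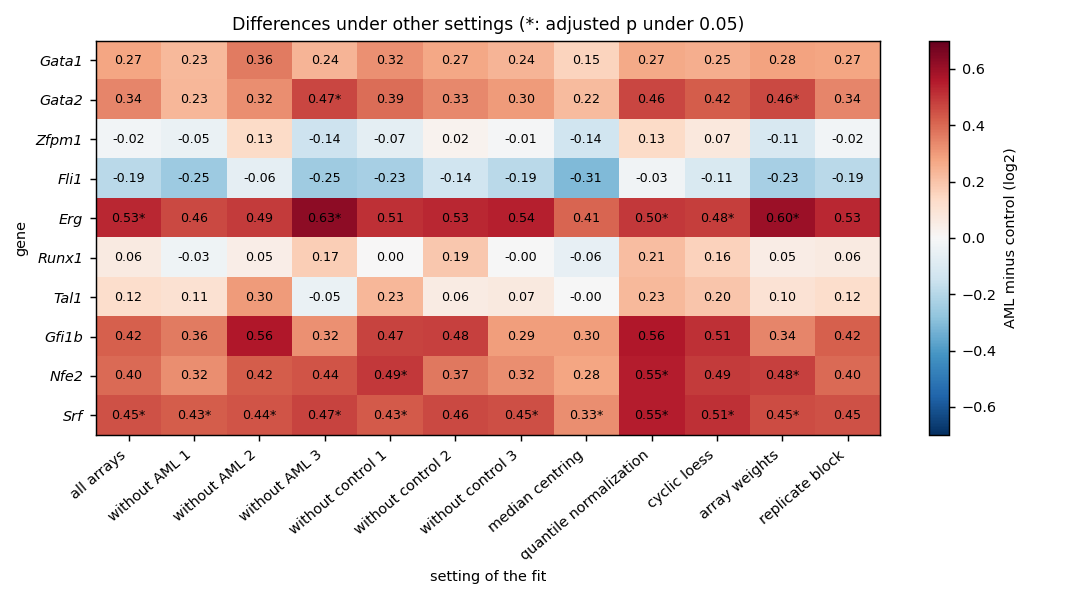
Difference of each gene (rows, AML minus control, log2) under 12 settings of the fit (columns), with an asterisk where the adjusted p was under 0.05. Srf, Erg, Gfi1b, Nfe2, Gata2 and Gata1 are positive in every column, Fli1 is negative in every column, and Zfpm1, Runx1 and Tal1 change sign.

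The spread of most factors was wider among the AML arrays than among the controls, which is a description with no test. The SD was larger in AML for 8 of the 10 genes (all but Runx1 and Nfe2), with a median of 0.21 in AML and 0.10 in control, beside medians of 0.12 and 0.10 over all genes at or above the median level. The set split into 5 and 5 by which AML array was lowest, a grouping made after the values were seen. Gata1, Fli1, Zfpm1, Tal1 and Gfi1b were lowest on AML array 2, by 0.25 (Gata1) to 0.69 (Tal1) relative to AML array 3. Gata2, Runx1, Nfe2, Erg and Srf were lowest on AML array 3, with AML array 2 above it by 0.03 (Nfe2) to 0.29 (Gata2). AML array 1 was the lowest for 0 members and the highest for 7. Over all genes at or above the median level, AML array 2 was lowest in 22.6% and AML array 3 in 57.0%. AML array 1 was lowest in 20.5% of them and highest in 36.1%.

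Ranked within the 3 AML arrays only, the measured platelet gene targets of GATA1, FLI1, RUNX1 and NFE2 were lowest on AML array 2. So were Gata1 and Fli1 but not Runx1. Of 17 measured genes on a list of GATA1, FLI1 and RUNX1 targets, 17 were lowest on AML array 2, and 16 were highest on AML array 3. Over all genes at or above the median level, these shares were 22.6% and 25.7%. Gata1 and Fli1 were highest on AML array 1, and Runx1 was lowest on AML array 3. All 5 measured NFE2 targets, of which Casp12 lay under the background level, were also lowest on AML array 2 and highest on AML array 3, although Nfe2 itself was not. Itga2b, for instance, stood at 9.35, 8.71 and 9.61 on AML arrays 1 to 3, against 9.16, 9.02 and 8.93 on the control arrays. Tubb1, the platelet tubulin gene that NFE2 activates, stood at 9.57, 8.99 and 9.63 on the AML arrays, against 9.28, 8.80 and 8.78 on the control arrays. Among the controls, 15 of the 17 targets were highest on control array 1, beside 27.6% of all genes at or above the median level. Gata1, Gata2, Tal1 and Nfe2 were also highest there, whereas Fli1, Zfpm1, Runx1, Gfi1b and Srf were highest on control array 2 and Erg on control array 3. In sorted bulk RNA, fewer megakaryocytes in a sort and less of these transcripts per megakaryocyte cannot be told apart.

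**Figure D4:**
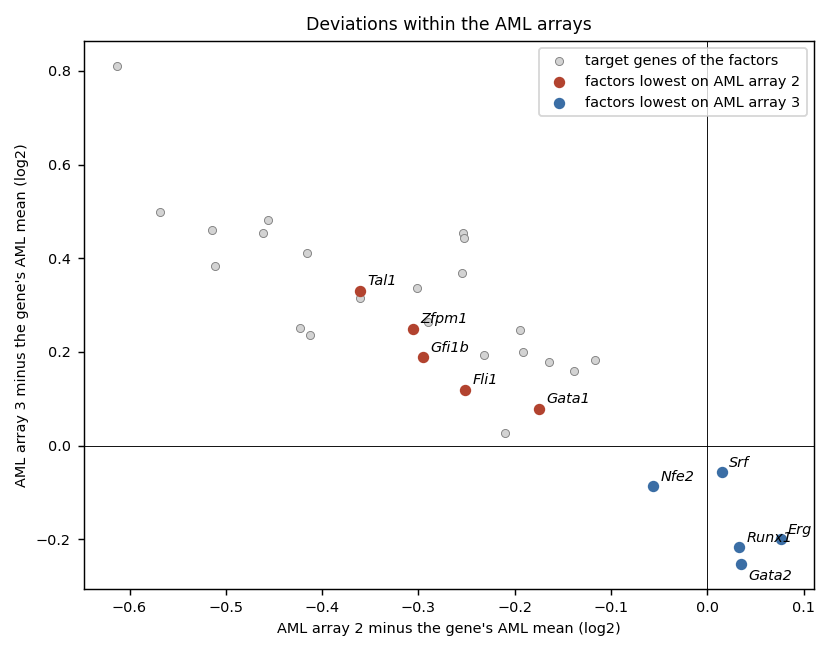
For each gene, the log2 level on AML array 2 (horizontal axis) and on AML array 3 (vertical axis), each minus the gene's mean over the 3 AML arrays; red points are the 5 factors lowest on AML array 2, blue points the 5 lowest on AML array 3 and grey points 22 target genes of GATA1, FLI1, RUNX1 and NFE2. The targets lie in the upper left with Tal1, Zfpm1, Gfi1b, Fli1 and Gata1, and Gata2, Runx1, Erg, Srf and Nfe2 lie below 0 on the vertical axis.

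Of these target lists, 1 gene passed the test between AML and control. Of the 17 GATA1, FLI1 and RUNX1 targets, 0 were higher and 1 was lower, beside 4.49% and 6.25% of all genes. At an unadjusted p under 0.05, the counts were again 0 and 1, beside 21% and 11.8% of all genes. The list median was +0.11, close to the median of all genes. The gene that fell was Plek, encoding the platelet kinase substrate pleckstrin, at 10.02 ± 0.20 in AML and 10.65 ± 0.07 in control (difference -0.64, adjusted p = 0.0165), and the adjusted p was 0.0502 to 0.0744 on leaving out AML array 1 or either of control arrays 2 and 3. Of the 5 NFE2 targets, 0 passed in either direction, also at an unadjusted p under 0.05, and Tubb1 averaged 9.40 ± 0.36 in AML and 8.95 ± 0.28 in control (difference +0.45, adjusted p = 0.180).

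Of 28 measured targets of SRF, which include actins, actin-binding proteins and immediate early genes, 0 were higher and 2 were lower, beside 4.49% and 6.25% of all genes. At an unadjusted p under 0.05, 2 were higher and 4 lower, beside 21% and 11.8% of all genes, and the list median was -0.07 beside +0.11 over all genes. Ccn1, a matricellular protein gene, fell by 0.99, to 5.34 ± 0.18 in AML against 6.33 ± 0.03 in control (adjusted p = 0.00233), with its AML mean under the background level. Mcl1, an anti-apoptotic BCL2 family gene, fell by 0.45, to 8.18 ± 0.07 in AML against 8.64 ± 0.01 in control (adjusted p = 0.0106). The list held 4 lower genes without AML array 3, where Fosb and Itgb1 joined and 6.54% of all genes were called lower, and 1 without either of control arrays 2 and 3, where Mcl1 no longer passed (adjusted p 0.0523 to 0.0586, and 0.0548 under quantile normalization). Of the 6 MRTF and ternary complex factors through which SRF acts, 0 were higher and 1, Elk4, was lower, at 6.28 ± 0.07 in AML and 6.65 ± 0.13 in control (difference -0.37, adjusted p = 0.0422), and it passed without control array 1 but with no other single array left out (adjusted p 0.0638 to 0.150). Mrtfa stood at 6.61 ± 0.12 in AML and 6.82 ± 0.12 in control (adjusted p = 0.171).

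Among the dimer partners and competitors of NFE2, Bach1 and Mafk fell. Of the 8 small MAF genes and relatives of NFE2, 0 were higher and 2 were lower (1 and 4 at an unadjusted p under 0.05, beside 21% and 11.8% of all genes), with a list median of -0.26. Bach1, a repressor that competes for the sites of NFE2, fell 1.54-fold, to 7.81 ± 0.14 in AML against 8.43 ± 0.07 in control (difference -0.62, adjusted p = 0.0101). It no longer passed without control array 2 (adjusted p = 0.0531) or 3 (adjusted p = 0.0514). Mafk, a small MAF partner, fell by 0.31, to 7.49 ± 0.06 in AML against 7.80 ± 0.08 in control (adjusted p = 0.0465), a call lost without any single array (adjusted p 0.0599 to 0.152) and under quantile normalization (adjusted p = 0.165). Mafg, another partner, stood at 6.97 ± 0.11 in AML and 6.99 ± 0.04 in control (adjusted p = 0.867).

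Among 20 measured partners of the GATA, TAL1, RUNX1 and GFI1B complexes, 0 were higher and 1 was lower, beside 4.49% and 6.25% of all genes. At an unadjusted p under 0.05, 3 were higher and 3 lower, beside 21% and 11.8% of all genes, and the list median was +0.07. Kdm1a, the demethylase that GFI1B recruits, fell by 0.42, to 6.76 ± 0.04 in AML against 7.18 ± 0.16 in control (adjusted p = 0.0365), a call kept on leaving out AML array 3, or control array 1, and ended by leaving out any other (adjusted p 0.0863 to 0.139). Without AML array 3, Lmo2, the bridging protein gene of the TAL1 complex, and Cbfa2t3, a corepressor gene, passed upward, at +0.53 (adjusted p = 0.00769) and +0.29 (adjusted p = 0.0432). With all arrays Lmo2 stood at 7.33 ± 0.23 in AML and 6.94 ± 0.03 in control (adjusted p = 0.0728). Cbfb, the partner of RUNX1, stood at 6.78 ± 0.11 in AML and 6.94 ± 0.15 in control (adjusted p = 0.291).

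Of 19 relatives of the factors, 1 was higher and 2 were lower, beside 4.49% and 6.25% of all genes (1 and 5 at an unadjusted p under 0.05). Ets1, an ETS factor of lymphocytes and other cells, fell 2.01-fold, to 5.92 ± 0.26 in AML against 6.93 ± 0.11 in control (adjusted p = 0.00703). Ets2 fell by 0.83, to 6.22 ± 0.28 in AML against 7.05 ± 0.16 in control (adjusted p = 0.0195). Gfi1, the paralog of Gfi1b that acts in granulocytes and stem cells, rose by +0.59, to 6.49 ± 0.16 in AML against 5.91 ± 0.03 in control (adjusted p = 0.0120). Neither Gfi1 nor Ets2 passed without either of control arrays 2 and 3 (adjusted p 0.0543 to 0.0835).

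**Figure D5:**
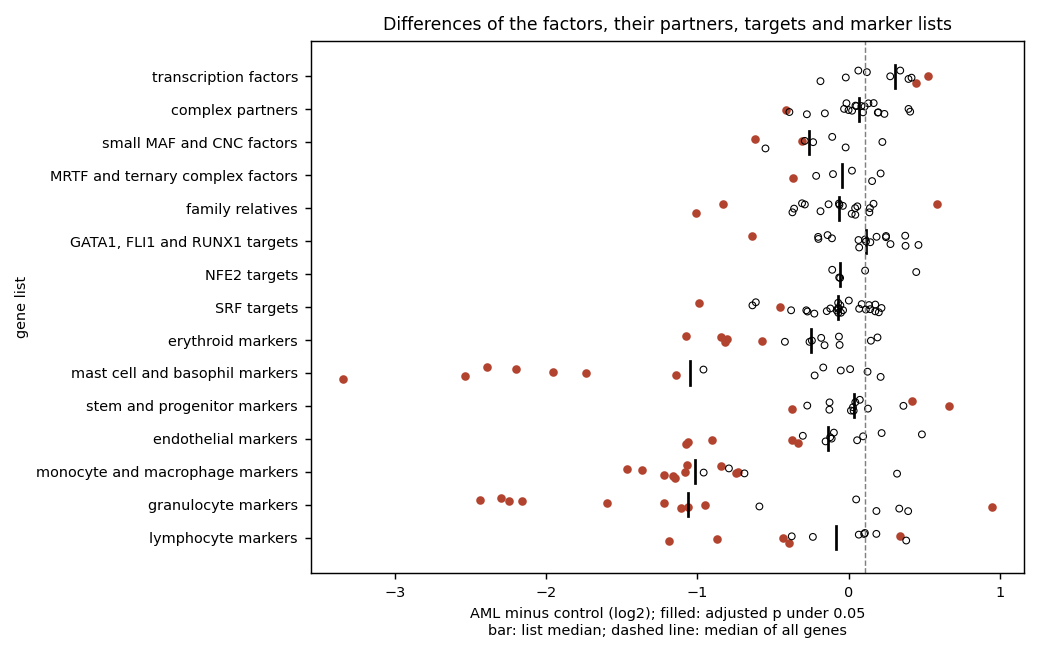
Difference of each gene (AML minus control, log2, horizontal axis) for the 10 transcription factors and 14 gene lists (rows), filled where the adjusted p was under 0.05; bars mark list medians and the dashed line the median of all genes. The factors have a median of +0.31, and the target lists of GATA1, FLI1 and RUNX1, of NFE2 and of SRF have medians of +0.11, -0.06 and -0.07. The lists of monocyte and macrophage, of granulocyte and of mast cell and basophil markers have medians of -1.01, -1.06 and -1.05.

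Several of the factors also act in other cells that a marrow sort can hold, and markers of those cells moved in the same sorts. GATA2 is active in mast cells and basophils, of whose markers 7 of 14 were lower and 0 higher, beside 6.25% of all genes lower and 4.49% higher. Their summed level, as the log2 of the sum of linear values, was 11.06 to 11.40 on the AML arrays and 12.60 to 12.99 on the control arrays, and Mcpt8, a basophil protease gene, stood at 8.52 ± 0.13 in AML and 10.48 ± 0.16 in control (adjusted p = 3.7e-04). Gzmb, a granule protease gene on that list, fell 10.1-fold, to 7.13 ± 0.06 in AML against 10.47 ± 0.16 in control (adjusted p = 4.4e-05). The genes of that list that did not pass were Kit, Cpa3, Il3ra, Hdc, Tpsab1, Mcpt4 and Cma1 (adjusted p 0.103 to 0.963). Kit differed by +0.21 (adjusted p = 0.377) and Cpa3 by -0.23 (adjusted p = 0.447). GATA1, TAL1 and GFI1B also act in red cell precursors, of whose markers 5 of 14 were lower (3 without control array 2 or control array 3, and 7 without AML array 3, where Aqp1 and Hemgn joined) and 0 higher. Their summed level was 9.62 to 9.88 on the AML arrays and 10.07 to 10.12 on the control arrays, with the haem synthesis gene Alas2 at 5.91 ± 0.20 in AML and 6.72 ± 0.04 in control (adjusted p = 0.00618). The brightest genes of that list, the water channel gene Aqp1 and the erythropoietin receptor gene Epor, did not pass with all arrays (adjusted p 0.374 and 0.323), but without AML array 3 Aqp1 passed downward (-0.49, adjusted p = 0.0437). Of these lists, 4 mast cell and basophil markers and 5 erythroid markers lay at or under the background level.

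ERG and FLI1 are also factors of endothelial cells, of whose markers 5 of 14 were lower and 0 higher, beside 6.25% of all genes lower and 4.49% higher. Their summed level, in which Pecam1 as the brightest gene weighs most, was 9.79 to 10.01 on the AML arrays and 9.85 to 10.07 on the control arrays. The list median did not overlap, at 5.36 to 5.52 on the AML arrays and 5.67 to 5.79 on the control arrays. Stab2, a receptor of marrow sinusoids, stood at 5.30 ± 0.11 in AML and 6.20 ± 0.16 in control (adjusted p = 0.00370), its AML mean under the background level, as were 5 of the 14 markers by their mean over all arrays. Leaving out 1 array gave an endothelial count of 3 (AML array 1), 1 (AML array 2) or 2 (each control array), and Pecam1, shared by platelets and endothelium, stood at 8.48 ± 0.18 in AML and 7.99 ± 0.17 in control (adjusted p = 0.0533) and passed upward without AML array 3 or control array 1. The other of the brightest endothelial markers, Tie1, did not pass (adjusted p = 0.380). Stem and progenitor cells use GATA2, ERG, RUNX1 and TAL1. Of 13 of their markers, 2 were higher and 1 was lower, and 5 lay at or under the background level. Their summed level, in which Slamf1 weighs most, was 10.14 to 10.51 on the AML arrays and 9.95 to 10.35 on the control arrays. The list median was 5.61 to 5.65 on the AML arrays and 5.68 to 5.69 on the control arrays. Cd34, a progenitor surface protein gene, rose by +0.66, to 7.40 ± 0.12 in AML against 6.74 ± 0.24 in control (adjusted p = 0.0264), and kept its call without AML array 3 or control array 3 but not without the other arrays (adjusted p 0.0571 to 0.110), nor under median centring (adjusted p = 0.0622). The rise of Pdzk1ip1 (+0.42, adjusted p = 0.0408) and the fall of Ctnnal1 (-0.37, adjusted p = 0.0423) were each lost without 5 of the 6 arrays in turn. Slamf1, the brightest gene of that list, did not pass (adjusted p = 0.310). Of the other marker lists, 10 of 14 monocyte and macrophage genes, 9 of 15 granulocyte genes and 4 of 12 lymphocyte genes were lower. The counts of higher genes were 0, 1 and 1. The monocyte count was 5 without control array 2 or control array 3. The lymphocyte count of lower genes was 2 when AML array 2 or 3, or control array 1 or 2, was left out. Of the 12 lymphocyte markers, 8 lay at or under the background level. The granulocyte sum was 13.55 to 13.74 on the AML arrays and 14.63 to 14.88 on the control arrays. Beside it, the sum of the GATA1, FLI1 and RUNX1 targets was 14.21 to 14.71 in AML and 14.40 to 14.65 in control. The monocyte and macrophage sum was 12.59 to 13.04 in AML and 13.02 to 13.17 in control, with list medians of 6.81 to 7.10 and 7.79 to 8.07. The part of all these other cells in the levels of the 10 factors was not tested.

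Outside the set, the genes whose profile over the 6 arrays was nearest to the mean profile of the 10 factors were Gm2075, Rpusd4, Ankrd2, Gm8439 and Zbtb45. Likeness was the root mean square difference of mean-centred log2 values over 6 arrays, which was 0.03 to 0.04 for these genes, beside a median of 0.20 over the 15022 genes at or above the median level. Rpusd4 and Gm8439 lay under the background level. Within the set, Erg and Srf were the pair with the nearest profiles (0.08), and Fli1 and Erg the farthest (0.40).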

How the data were processed

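Values of 6 arrays were used. The authors deposited log2 values; the submitters' processing notes name RMA, a method that corrects background, normalizes by quantiles and summarises probes, without a version. No build for the array design is stated in the labels. Of 72688 array rows, 30604 had 1 gene symbol in the platform annotation, 2146 several and 39938 none. Older symbols were replaced from RefSeq's GRCm38.p6 gene table, and the row with the highest mean was kept for each of 429 genes with several rows, leaving 30063 genes.

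The values were tested as deposited with limma 3.58.1 (lmFit and eBayes, R 4.3.3), AML against control, with no filter and no block, and 2 pairs of factors with exact permutation tests (scipy 1.17.1). The fit was also tested on simulated data, where it called 17 of 50 genes changed 1.5-fold and 39 of 50 changed 2-fold. It called 5 of 29863 unchanged genes. The largest difference of a member, that of Erg, was 1.44-fold, so that a member that did not pass may still differ. The members and the 14 lists (196 genes measured, 3 of them on more than 1 list) were chosen with earlier results of these data known. Besides the members, genes were named by rule: up to 3 per list and direction with the smallest p, the 2 brightest of each cell type list, Pf4, Itga2b and the 5 nearest profiles; not all of these are printed. Tubb1, Mrtfa, Mafg, Lmo2, Cbfa2t3, Cbfb, Fosb, Itgb1, Hemgn, Kit, Cpa3, Il3ra, Hdc, Tpsab1, Mcpt4 and Cma1 were chosen after their values were seen. Alternatives were a replicate block, a mean-variance trend, array weights, quantile normalization, median centring, cyclic loess, 3 filters on dim genes, the mean of a gene's rows and leaving out each array; centring on the median of all rows was added after seeing the data. The number of arrays limits the precision.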

Additional observations from a re-analysis of the deposited data

How the results depend on the processing

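The count of members higher in AML was 2 with all arrays. It ranged from 0 to 3 when single arrays were left out, and was 4 with array weights, 1 under median centring and 0 under centring on the median of all rows. With array weights 16.1% of all genes were called higher, and with median centring 1.68%. The count of members lower in AML was 0 under each of the 17 alternatives. The count over all genes, 3230, ranged from 967 to 3606 without single arrays and was 7853 with array weights. The count over the list genes, 55, ranged from 30 to 57 without single arrays. Differences that turned sign were those of Runx1 (-0.0567 under median centring, -0.0457 under centring on all rows, and -0.0281 to 0.189 without single arrays, below 0 without AML array 1 or control array 3), Zfpm1 (+0.13 under quantile normalization, +0.0744 under cyclic loess, and -0.144 to 0.134 without single arrays, above 0 without AML array 2 or control array 2) and Tal1 (-0.000175 under median centring, and -0.0451 to 0.301 without single arrays, below 0 without AML array 3). The cause of these changes was not tested. With the replicate number as a block, 0 members and 1067 genes passed (adjusted p 0.0654 for Srf and 0.0769 for Erg). The labels name no animal or batch shared by same-numbered arrays, and these arrays did not deviate together (correlations across genes of -0.36, 0.14 and -0.29). The numbers were therefore not taken as pairs. The highest correlation between an AML and a control array was 0.43, for AML array 3 and control array 1, and its cause was not tested. With the mean of a gene's rows, the differences between pairs of factors were again 0.07 and 0.71.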
